A study of Mus musculus with 8 samples.

Results

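Collagens, laminins and integrins are the main structural proteins of the extracellular matrix and the receptors that hold cells to it. They were described here in Cajal-Retzius (CR) neurons and other neurons of the embryonic mouse cortex. The members were all genes of the matrix whose symbol has the form of a collagen chain (Col, a number, a, a number), a laminin chain (Lama, Lamb or Lamc and a number) or an integrin subunit (Itga, or Itgb1 to Itgb8). The rule used names only and no measured value. It took 82 of the 27998 listed genes, namely 44 collagen, 11 laminin and 27 integrin genes, under 81 different symbols, since Itgam was listed under 2 identifiers.

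Collagen chains wind into triple helices of 3 chains, and laminins are trimers of 1 alpha, 1 beta and 1 gamma chain that build basement membranes. Integrins are dimers of 1 alpha and 1 beta subunit, and each pair binds its own set of matrix proteins. In the developing cortex the pial basement membrane lies above layer 1, where CR neurons migrate beneath the meninges and secrete Reelin, the product of Reln. Meningeal fibroblasts and blood vessel cells are the usual sources of the abundant matrix collagens.

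The cells were dissociated from the cerebral cortex of embryos at E15.5 and sorted by FACS for EGFP. The embryos were of the transgenic strain Tg(Ebf2-EGFP)FB58Gsat, in which Ebf2 regulatory sequence drives EGFP. There was no other genotype and no treatment. The labels name 8 samples of this 1 group, from about 8 embryos pooled over 2 pregnant mice. All cells came as 1 matrix of unique molecular identifiers (UMIs, each 1 captured transcript) and no file assigns barcodes to samples, which makes them 1 library. No difference below has a test between samples. Every interval is an exact 95% interval for counting error only and leaves out the spread between animals.

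The matrix held 3000 barcodes and 57180867 UMIs, with 10718 to 76690 UMIs per barcode. Removal of 69 likely doublets left 2931 barcodes. Of these, 472 (16.1%) were Reln-high, which means at least 5 Reln UMIs per 10000 UMIs. Another 2442 barcodes were other neurons, and 17 barcodes of a radial glia-like cluster were left out. Only 23 barcodes lay between 4 and 6 Reln UMIs per 10000. All 7 CR neuron markers stood at least 2-fold higher in Reln-high barcodes, at 3447 UMIs per 1000000 UMIs (CPM) summed over the list against 142 CPM, and Reln itself had defined the groups. Most of the sorted cells, which the study treats as a CR neuron population, were thus not Reln-high. The study reports that nearly all EGFP-positive cells on E15.5 sections stained for Reelin protein. It also found Reln RNA in all its cell clusters. A limit on RNA, set here, is a different measure and does not contradict that. Of the 2442 other neurons, 1590 held at least 1 Reln UMI, so that other neurons are those below the limit and not those without Reln. Reln-high barcodes were deeper, with a median of 21542 UMIs against 15274 UMIs, and 39.6% of them against 9.87% of other neurons exceeded 25000 UMIs. RNA of both sexes (5 or more Xist UMIs with 2 or more UMIs of Y-linked genes) was found in 12.9% of Reln-high barcodes and 2.95% of other neurons.

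K-means clustering without Reln and without any member gave 8 clusters. There were 395 barcodes in a CR-like cluster, 341 in a subplate-like, 358 in an upper-layer-like and 652 in a deep-layer-like cluster. The other clusters stayed unnamed and are called by their leading gene: Fezf2 (745 barcodes), Neurod1 (245) and Snhg11 (177). The radial glia-like cluster held 18 barcodes, 1 of them Reln-high. Of the Reln-high barcodes, 389 lay in the CR-like cluster, 37 in the Snhg11-led and 22 in the Neurod1-led cluster.

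The matrix and receptor genes were sparse. Of 82 members, 70 had a UMI in either set of neurons, 39 had at least 20 UMIs and 15 had at least 100 UMIs in both sets together. Another 31 members had 1 to 19 UMIs, too few for a ratio. Over all 3000 barcodes 10 members had no UMI, which allows a level of up to 0.0525 CPM (3 counts of the total). They were Col3a1, Col4a3, Col4a6, Col5a3, Col8a2, Col17a1, Lamc3, Itga2, Itgad and Itgal. The median barcode held 3 member UMIs when Reln-high and 2 when not.

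As families, the integrins stood higher in Reln-high barcodes while collagens and laminins were level. The 27 integrin genes summed to 72.3 CPM in Reln-high barcodes and 50.3 CPM in other neurons, a log2 ratio of 0.52 (0.41 to 0.64). The 44 collagen genes summed to 63.1 CPM against 60.4 CPM, a log2 ratio of 0.06 (−0.05 to 0.18). The 11 laminin genes summed to 13.7 CPM against 14.0 CPM, with a log2 ratio of −0.03 (−0.29 to 0.22). The median log2 ratio over all 11249 genes with at least 100 UMIs was 0.12, so a ratio near that value is the common one. A level sum hides members that differed in opposite directions, which were found among the collagens and laminins.

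A member was counted as higher or lower when it had at least 100 UMIs in both sets together and differed at least 2-fold, with and without the barcode that held most of its UMIs. One of the 15 members with at least 100 UMIs was higher in Reln-high barcodes, Col23a1, where 7.25% of all genes were. One was lower, Col19a1, where 5.26% of all genes were. Both shares, at 6.67%, were near the background. At a minimum of 20 UMIs, 7 of 39 members (17.9%) were higher, against 9.35% of all genes. These were Col1a1, Col6a2, Col6a3, Col23a1, Lama3, Lama5 and Itgae. Another 9 of 39 (23.1%) were lower, against 7% of all genes. These were Col4a1, Col5a1, Col8a1, Col9a1, Col11a2, Col15a1, Col19a1, Col22a1 and Lama1. Both shares at 20 UMIs were above those of all genes. Of the 39 members, 24 had 20 to 99 UMIs, whereas 11249 of the 13570 genes behind the all-gene shares had at least 100. The shares thus compare genes of unlike counts, and nothing particular to these families follows from them. The counting intervals of the 7 higher members all began above a log2 ratio of 1.04, whereas among the 9 lower members some intervals reached past 0, up to 0.39. The sets were unequal, with 12124239 UMIs in Reln-high barcodes and 42169759 in other neurons. A lower member has few UMIs in the smaller set, which widens its interval.

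**Figure D1:**
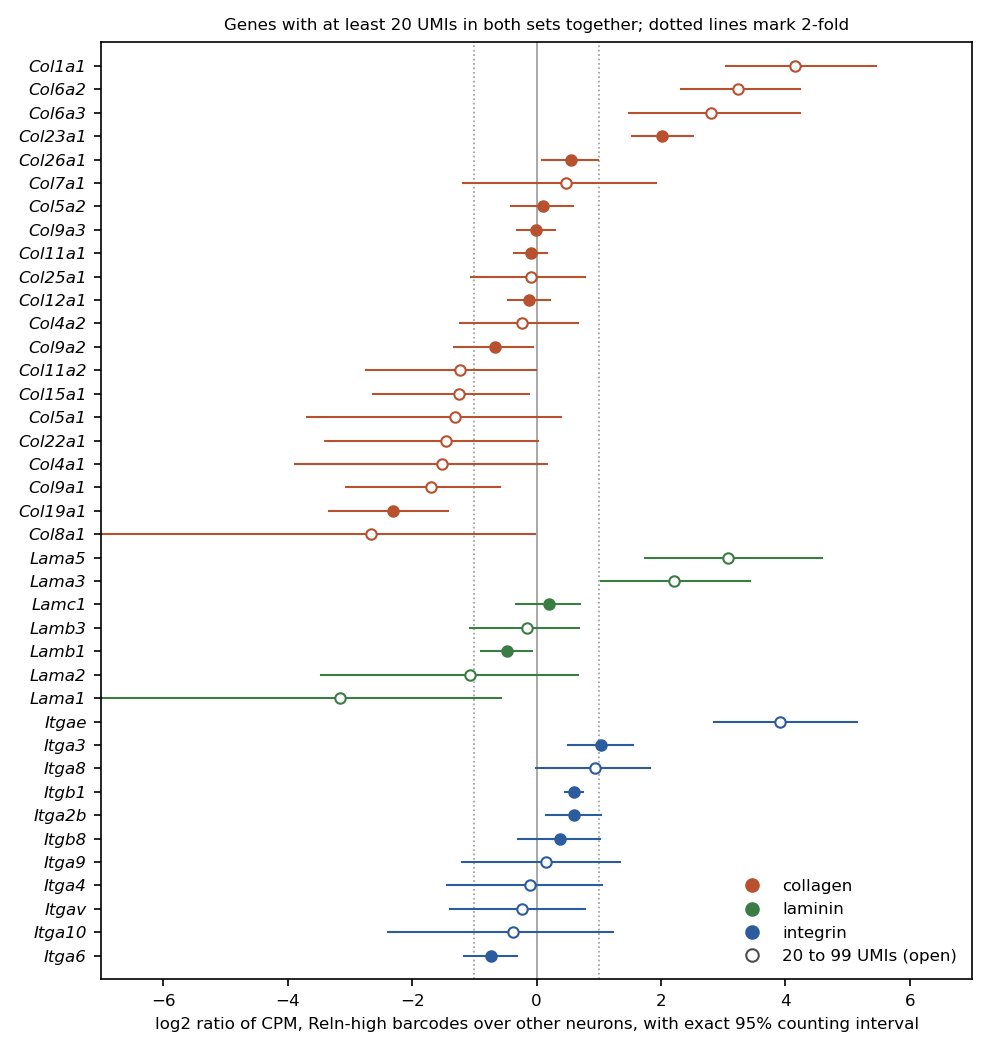
The log2 ratio of CPM in Reln-high barcodes over other neurons is shown for the 39 collagen, laminin and integrin genes with at least 20 UMIs, with exact 95% counting intervals. Filled points have at least 100 UMIs and open points 20 to 99, and an interval that meets the left edge runs past it. Col1a1, Itgae, Col6a2, Lama5, Col6a3, Lama3 and Col23a1 lie to the right of the 2-fold line with their whole interval. Among the 9 lower genes only Col19a1 lies past the left 2-fold line with its whole interval.

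Col23a1 (chr11:51289920-51583918, plus strand, GRCm38) encodes collagen XXIII, a collagen that spans the plasma membrane. It had 78 UMIs in Reln-high barcodes (6.43 CPM, 5.09 to 8.03) and 67 in the far larger set of other neurons (1.59 CPM, 1.23 to 2.02). The log2 ratio was 2.02 (1.53 to 2.51), and it lay between 1.82 and 2.20 over 11 alternative settings. The difference was not particular to Reln-high cells once clusters were separated. Subplate-like barcodes held Col23a1 at 7.99 CPM (5.80 to 10.7), next to 7.09 CPM (5.53 to 8.96) in CR-like barcodes, a log2 ratio of −0.17 (−0.74 to 0.41). The other 5 neuron clusters together stood at 0.80 CPM, from 0.18 CPM (1 UMI) in the upper-layer-like to 1.79 CPM in the Snhg11-led cluster. CR neurons and subplate neurons are both early-born neurons of the preplate, and whether that bears on the Col23a1 level was not tested. The gene Phykpl begins 839 bases past the end of Col23a1 on the same strand, and reads that run on from one gene cannot be assigned to the other here.

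Col19a1 (chr1:24261890-24587472, minus strand, GRCm38) encodes a fibril-associated collagen that is made by subsets of forebrain neurons. Reln-high barcodes had 11 UMIs (0.91 CPM, 0.45 to 1.62) and other neurons 189 UMIs (4.48 CPM, 3.87 to 5.17), a log2 ratio of −2.30 (−3.33 to −1.43). By cluster it was found in 3 places: 19.6 CPM (16.1 to 23.7) in subplate-like, 9.25 CPM (6.29 to 13.1) in Snhg11-led and 7.23 CPM (5.35 to 9.56) in Neurod1-led barcodes. CR-like barcodes held 5 UMIs (0.51 CPM), and the Fezf2-led, deep-layer-like and upper-layer-like clusters together held 7 UMIs (0.24 CPM). The CR-like level was thus low against the 3 clusters that held the gene (log2 ratio −4.57, −6.21 to −3.32) and not separable from the other 3 (1.06, −0.94 to 2.93). Col19a1 and Col23a1 both had their highest neuronal level in subplate-like barcodes, but only Col23a1 had a like level in CR-like barcodes.

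The promoters of Col23a1 and Col19a1 are shown because these were the only members past 2-fold at 100 UMIs, in opposite directions, and that of Col6a2 as a higher collagen with fewer UMIs. The sequences are from RefSeq (GRCm38.p6), 250 bases before to 50 bases after the gene's start, read 5′ to 3′. Capitals mark the GC box GGGCGG on either strand. The E-box CAGCTG and the letters TATAAA were found in none of the 3.
Col23a1 promoter, chr11:51289670-51289969, plus strand: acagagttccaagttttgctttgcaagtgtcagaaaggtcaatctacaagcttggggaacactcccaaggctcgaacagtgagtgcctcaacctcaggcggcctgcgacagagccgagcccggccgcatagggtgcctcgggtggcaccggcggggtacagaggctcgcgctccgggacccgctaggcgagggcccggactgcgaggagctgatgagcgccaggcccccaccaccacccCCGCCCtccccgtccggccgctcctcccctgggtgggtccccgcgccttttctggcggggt
Col6a2 promoter, chr10:76623581-76623880, minus strand: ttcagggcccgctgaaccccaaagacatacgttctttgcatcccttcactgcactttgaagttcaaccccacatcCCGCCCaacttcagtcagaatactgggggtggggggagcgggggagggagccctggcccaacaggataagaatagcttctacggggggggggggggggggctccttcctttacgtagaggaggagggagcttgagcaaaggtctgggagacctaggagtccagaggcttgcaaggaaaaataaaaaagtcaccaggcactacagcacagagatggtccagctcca
Col19a1 promoter, chr1:24587388-24587687, minus strand: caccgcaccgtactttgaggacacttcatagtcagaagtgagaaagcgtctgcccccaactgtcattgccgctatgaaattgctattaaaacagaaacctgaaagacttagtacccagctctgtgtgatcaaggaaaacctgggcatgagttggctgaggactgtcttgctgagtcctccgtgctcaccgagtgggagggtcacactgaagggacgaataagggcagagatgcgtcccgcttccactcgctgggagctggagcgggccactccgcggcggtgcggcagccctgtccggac
The Col23a1 and Col6a2 windows each held 1 GC box, which 35.7% of all 32851 promoters of this length held, and Col19a1 held none. CAGCTG stood in 16.3% of all promoters and TATAAA in 13.6%. The Col23a1 window was 67.7% G or C, Col6a2 56.7% and Col19a1 56.3%, against a median of 52.7% over all promoters. These are matches of letters and say nothing of binding.

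Of 5 fibrillar collagens with at least 20 UMIs, Col1a1 was higher, Col11a2 and Col5a1 were lower, and Col11a1 and Col5a2 were near level. Col11a1, a chain of collagen XI and the most counted collagen, stood at 12.5 CPM in Reln-high barcodes and 13.3 CPM in other neurons (log2 ratio −0.09, −0.36 to 0.17). Col11a2, another chain of collagen XI, had 6 UMIs against 49 (−1.23, −2.75 to −0.01). Col5a2, a chain of collagen V, stood at 3.71 CPM against 3.46 CPM, and Col5a1, of the same collagen, had 3 UMIs against 26 (−1.32, −3.69 to 0.39). Col11a1 ranged from 6.25 CPM in Snhg11-led to 22.7 CPM in subplate-like barcodes.

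Col1a1, a chain of collagen I and a defining product of fibroblasts, was counted with 41 UMIs in Reln-high barcodes (3.38 CPM, 2.43 to 4.59) and 8 in other neurons (0.19 CPM, 0.08 to 0.37). The log2 ratio of 4.16 (3.04 to 5.46) was the highest of all 39 members. Its usual partners were close to absent. Col1a2, the second chain of collagen I, had 0 UMIs in Reln-high barcodes and 2 in other neurons, and Col3a1 had none. The 41 UMIs lay in 26 barcodes, the fullest of which held 8.16% of the gene's UMIs. In the CR-like cluster the level was 4.25 CPM, against 0.16 CPM in the other 6 neuron clusters together.

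As a list, markers of meningeal fibroblasts were not higher in Reln-high barcodes. The list summed to 0.66 CPM in Reln-high barcodes and 1.33 CPM in other neurons (log2 ratio −1.01, −2.29 to 0.07). Most of it was Dcn, a proteoglycan of fibroblasts, at 3 and 42 UMIs. Dcn was also at least 2-fold higher in the deep-layer-like cluster. Lum had 3 and 3 UMIs, Foxc1 1 and 3, Aldh1a2 1 and 0, Slc6a13 0 and 8, and Ogn 0 in both. Without Dcn the counts were too few for a direction. Endothelial markers summed to 4.12 CPM against 1.80 CPM, most of it Pecam1, an adhesion protein of vessels, at 35 and 46 UMIs (log2 ratio 1.40, 0.73 to 2.07). Of the other endothelial markers, Kdr, a receptor for vascular growth factor, had 9 and 9 UMIs (0.74 and 0.21 CPM, log2 ratio 1.80, 0.29 to 3.31). Cldn5, a tight junction protein, had 2 and 12 UMIs (0.16 and 0.28 CPM). Flt1 had 2 and 2 UMIs, Cdh5 2 and 4, and Tie1 0 and 3. Reln-high barcodes held 12124239 UMIs in all and other neurons 42169759, so equal counts are not equal levels. Mural cell markers summed to 2.89 CPM against 0.52 CPM, and Cspg4 gave 23 of the 35 UMIs in Reln-high barcodes. Pdgfrb had 6 and 5 UMIs (log2 ratio 2.06, 0.09 to 4.11). Vtn had 3 and 4 UMIs, Abcc9 1 and 3, Kcnj8 1 and 2, and Higd1b 1 and 6. Microglia markers stood at 6.02 CPM and 9.46 CPM, nearly all of it Aif1. The part of the vascular lists in any member's ratio was not tested.

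Collagen VI is a heterotrimer that forms beaded filaments around cells, and 2 of its 6 chains had enough UMIs for a ratio. Col6a2 had 38 UMIs in Reln-high barcodes (3.13 CPM, 2.22 to 4.30) and 14 in other neurons (0.33 CPM, 0.18 to 0.56), a log2 ratio of 3.24 (2.32 to 4.24). Col6a3 had 16 and 8 UMIs (1.32 and 0.19 CPM), with a log2 ratio of 2.80 (1.49 to 4.23). Col6a1, the chain both would need, was found once in all neurons. No barcode held UMIs of both Col6a2 and Col6a3, which allows up to 0.636% of Reln-high barcodes and 0.123% of other neurons. At these counts a shared pattern in single cells was not detectable.

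The fibril-associated (FACIT) collagens had no member higher in Reln-high barcodes. Col9a3 was level at 9.82 CPM and 9.86 CPM (log2 ratio −0.01, −0.31 to 0.29). The other collagen IX chains were not, with Col9a2 at 2.14 CPM against 3.41 CPM (−0.67, −1.33 to −0.06) and Col9a1 at 0.58 CPM against 1.87 CPM (−1.70, −3.06 to −0.59). The 3 chains, which form 1 molecule, thus had unequal ratios. Exons of Col9a3 overlap those of Tcfl5 on the opposite strand, and strand handling is not given in the sources used here.

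Col12a1, which encodes collagen XII, was level between the sets (7.59 and 8.23 CPM, log2 ratio −0.12) but uneven between clusters. Neurod1-led barcodes held 44.9 CPM (40.0 to 50.2), and the other 6 neuron clusters together held 2.84 CPM, a log2 ratio of 3.98 (3.68 to 4.28). CR-like barcodes came next among neurons at 7.29 CPM. The radial glia-like cluster had 20.3 CPM from 6 UMIs (7.47 to 44.3). Over all 3000 barcodes the top barcode held 18 Col12a1 UMIs, and it was among those removed as likely doublets.

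The network and multiplexin collagens of basement membranes were scarce. Col4a1 and Col4a2 together form the main collagen IV network. Col4a1 had 3 UMIs in Reln-high barcodes and 30 in other neurons (log2 ratio −1.52, −3.88 to 0.16), and Col4a2 had 13 and 53 UMIs (−0.23, −1.23 to 0.67). Col15a1 had 7 and 58 UMIs (−1.25, −2.63 to −0.12) and was highest among neurons in subplate-like barcodes at 3.99 CPM. Col26a1, which belongs to neither group and was not scarce at 206 UMIs, stood at 5.03 CPM against 3.44 CPM (0.55, 0.09 to 0.99). Snhg11-led barcodes held it at 10.4 CPM.

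**Figure D2:**
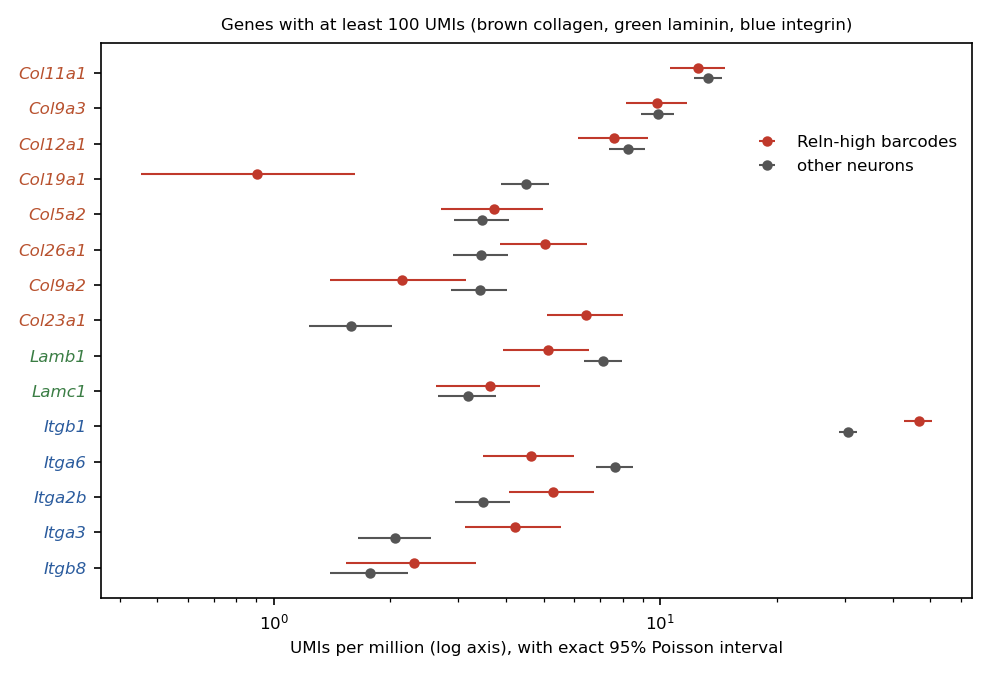
Levels in CPM, on a log axis, are shown for the 15 collagen, laminin and integrin genes with at least 100 UMIs, in 472 Reln-high barcodes (red) and 2442 other neurons (grey), with exact 95% Poisson intervals. Itgb1 lies far above all others in both sets, and the intervals of Col23a1 and Col19a1 are widely apart in opposite directions.

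Laminin chains differed from each other within a level sum. The beta and gamma chains that most laminins share were the most counted. Lamb1 had 62 UMIs (5.11 CPM) in Reln-high barcodes and 300 (7.11 CPM) in other neurons, a log2 ratio of −0.48 (−0.90 to −0.08), which was −1.47 (−2.49 to −0.60) without barcodes above 25000 UMIs. Lamc1 stood at 3.63 CPM against 3.18 CPM (0.19, −0.33 to 0.69). Lamb3, a beta chain of epithelial laminin, stood at 1.24 CPM against 1.38 CPM.

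The alpha chains, which carry the binding sites for receptors, went apart. Lama5 had 17 UMIs in Reln-high barcodes and 7 in other neurons (1.40 and 0.17 CPM, log2 ratio 3.08, 1.74 to 4.59). Lama3 had 16 and 12 UMIs (1.32 and 0.28 CPM, 2.21, 1.04 to 3.42). Lama1 had 1 UMI against 31 (0.08 and 0.74 CPM, −3.16, −8.50 to −0.57), and Lama2 had 3 against 22 (−1.08, −3.46 to 0.66). CR-like barcodes held no Lama1 UMI, which allows up to 0.304 CPM. Lama5 and Lama1 thus differed in opposite directions, on few UMIs each. Adrm1 lies 87 bases past the end of Lama5 on the opposite strand, and strand handling is not given in the sources used here.

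Lamb1 shared its place with other genes of the Neurod1-led cluster. It stood there at 18.9 CPM, against 4.93 CPM over the other 6 neuron clusters (log2 ratio 1.94, 1.62 to 2.26). Itga6, a laminin receptor subunit, stood there at 16.5 CPM against 5.58 CPM (1.57, 1.23 to 1.89). Col5a2 at 12.1 CPM and Itga4 at 3.10 CPM were highest there too. Of the 39 members with at least 20 UMIs, 9 had their highest neuronal level in the Neurod1-led, 11 in the subplate-like, 8 in the CR-like and 0 in the deep-layer-like cluster. The same count over all genes was not made, and levels in smaller clusters are noisier. No trait of these families follows from the counts. The median depth differed between clusters, from 13548 UMIs in the deep-layer-like to 23326 UMIs in the Neurod1-led cluster.

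**Figure D3:**
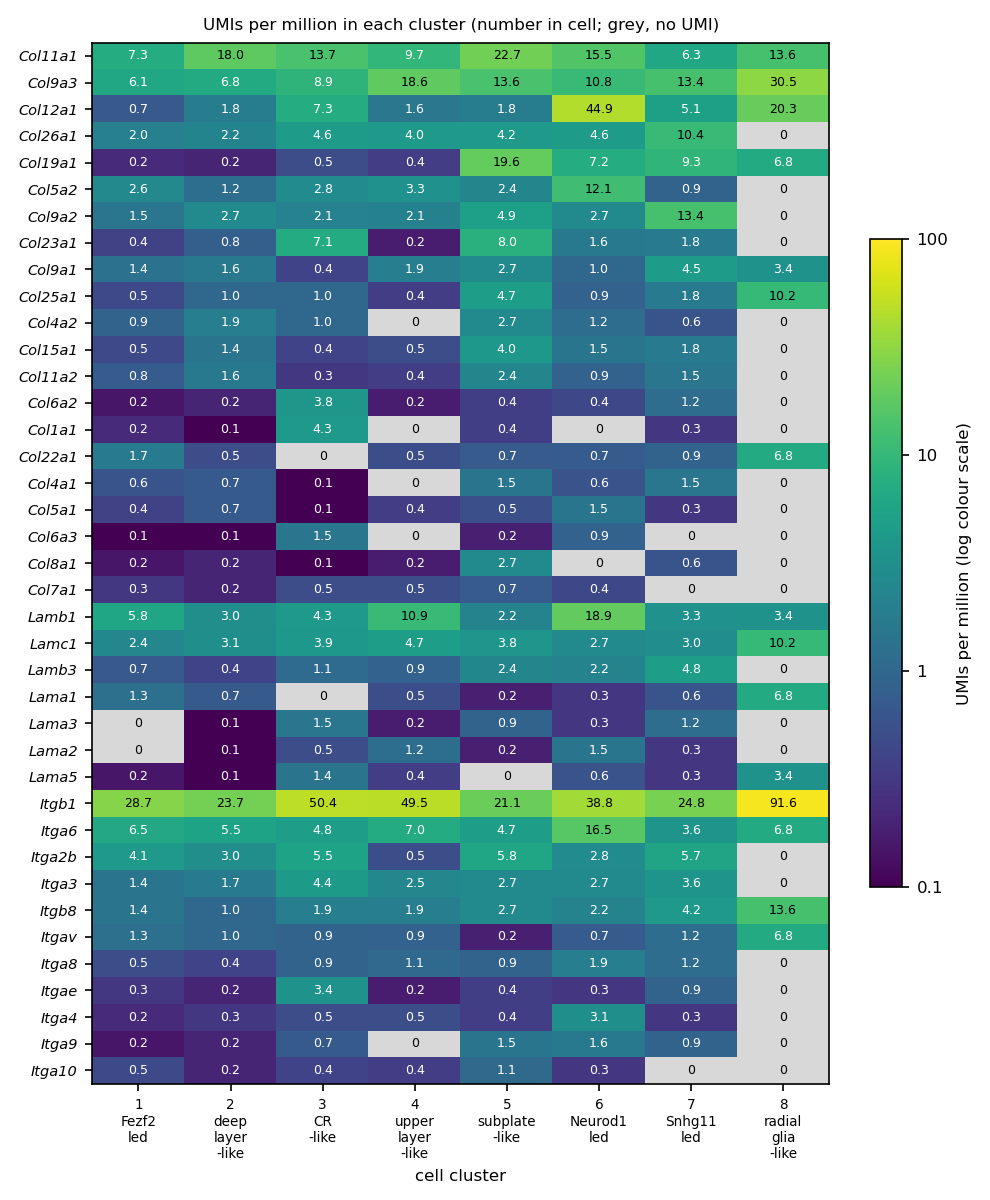
Levels in CPM are shown as numbers and on a log colour scale for the 39 genes with at least 20 UMIs in 8 cell clusters, with grey where no UMI was found. Col12a1 stands out in the Neurod1-led cluster at 44.9, Col19a1 in the subplate-like cluster at 19.6, and Col1a1, Col6a2 and Itgae in the CR-like cluster at 4.3, 3.8 and 3.4.

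Itgb1, the beta subunit that pairs with most alpha subunits, was by far the most counted member. It had 565 UMIs in Reln-high barcodes (46.6 CPM, 42.8 to 50.6) and 1290 in other neurons (30.6 CPM, 28.9 to 32.3), a log2 ratio of 0.61 (0.46 to 0.75). A UMI of Itgb1 was seen in 68.6% of Reln-high barcodes and 37.7% of other neurons. With every barcode thinned to 10000 UMIs the shares were 39.8% (35.4 to 44.4) and 25.1% (23.4 to 26.8), so the gap was smaller at equal depth. A cell type that lacks Itgb1 was not at hand, and radial glia-like barcodes held it in 11 of 18 at the thinned depth.

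The Itgb1 level was not particular to CR neurons either. CR-like barcodes stood at 50.4 CPM (46.1 to 55.1) and upper-layer-like barcodes at 49.5 CPM (43.9 to 55.6), a log2 ratio of 0.03 (−0.19 to 0.24). The other 5 neuron clusters together stood at 27.8 CPM, from 21.1 CPM in subplate-like to 38.8 CPM in Neurod1-led barcodes. Radial glia-like barcodes had the highest level at 91.6 CPM (60.3 to 133). Without Itgb1, the other 26 integrin genes summed to 25.7 CPM against 19.7 CPM, a log2 ratio of 0.39 (0.19 to 0.58).

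The laminin-binding alpha subunits Itga3 and Itga6 differed in opposite directions. Itga3 had 51 UMIs in Reln-high barcodes (4.21 CPM, 3.13 to 5.53) and 87 in other neurons (2.06 CPM, 1.65 to 2.54), a log2 ratio of 1.03 (0.50 to 1.54). It fell just under 2-fold (0.97) without its top barcode and was therefore not counted as higher. Itga6 had 56 UMIs (4.62 CPM) in Reln-high barcodes and 322 UMIs (7.64 CPM) in other neurons, a log2 ratio of −0.73 (−1.16 to −0.31). The intervals of the 2 ratios do not overlap. Itga3 is best known in the cortex as a receptor subunit of migrating neurons, and Itga6 as one of progenitors attached to laminin.

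Some barcodes held UMIs of both chains of these receptors. Itga3 and Itgb1 were found together in 33 of 472 Reln-high barcodes (6.99%, 4.86 to 9.68) and 33 of 2442 other neurons (1.35%, 0.93 to 1.89). Itga6 and Itgb1 were found together in 41 (8.69%, 6.31 to 11.6) and 121 (4.95%, 4.13 to 5.89). Itgb1 by itself was found in 324 Reln-high barcodes and 920 other neurons, Itga3 in 48 and 83, and Itga6 in 48 and 270. A joint share rises with the share of each chain by itself. Whether the chains met in 1 barcode more often than that was not tested. The shares are at full depth, and Reln-high barcodes were deeper. At 10000 UMIs Itga3 alone was found in 4.66% against 2.13% and Itga6 alone in 4.24% against 6.63%.

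Of the other alpha subunits, Itga2b and Itgae had counts without their known partner. Itga2b, the platelet receptor subunit, stood at 5.28 CPM against 3.49 CPM (log2 ratio 0.60, 0.15 to 1.03), and its partner Itgb3 had 3 UMIs in each set. Itgae, a subunit of lymphocytes that pairs with Itgb7, had 39 UMIs in Reln-high barcodes (3.22 CPM, 2.29 to 4.40) and 9 in other neurons (0.21 CPM, 0.10 to 0.41), a log2 ratio of 3.91 (2.84 to 5.15). Itgb7 had 2 UMIs in each set, and no barcode held UMIs of both. The other leukocyte subunits were at 0 or under 10 UMIs. Itgae UMIs lay in 37 Reln-high barcodes, so no single cell carried them.

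Collagen-binding alpha subunits were nearly absent. Itga10 had 22 UMIs in both sets, Itga11 had 10 and Itga1 had 6, while Itga2 had none. Itgb8, which binds latent TGF-beta with Itgav, stood at 2.31 CPM against 1.78 CPM (0.38, −0.30 to 1.02). Itgb5 (6 and 3 UMIs) and Itgb6 (5 and 2 UMIs) were too scarce for a ratio.

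Finer steps of Reln describe the same comparison again, for 6 members chosen because they differed between the sets, and are no further support for it. Barcodes were binned by Reln UMIs per 10000 into 0 to 1 (1774 barcodes), 1 to 5 (668), 5 to 10 (55), 10 to 20 (205) and 20 or more (212). Col23a1 stood at 1.52, 1.75, 4.61, 5.01 and 8.31 CPM in that order. Itgb1 stood at 31.8, 27.5, 32.9, 43.7 and 53.2 CPM. Both were highest in the top bin, and the bin of 5 to 10 had wide intervals from its 55 barcodes.

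Itgae (0.20, 0.25, 1.32, 3.08 and 3.88 CPM) was also highest in the top bin. Col1a1 was at or under 0.25 CPM in the first 3 bins and stood at 2.12 and 5.54 CPM in the last 2. The third bin had few barcodes, so its low Col1a1 value has a wide interval. Col19a1 ran the other way, at 4.91, 3.42, 1.97, 1.16 and 0.37 CPM. Reln-high barcodes in the CR-like cluster held Col23a1 at 7.15 CPM and Col1a1 at 4.19 CPM. The 83 Reln-high barcodes outside it held 3.42 CPM and 0 CPM, and no UMI in so few barcodes does not show absence.

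**Figure D4:**
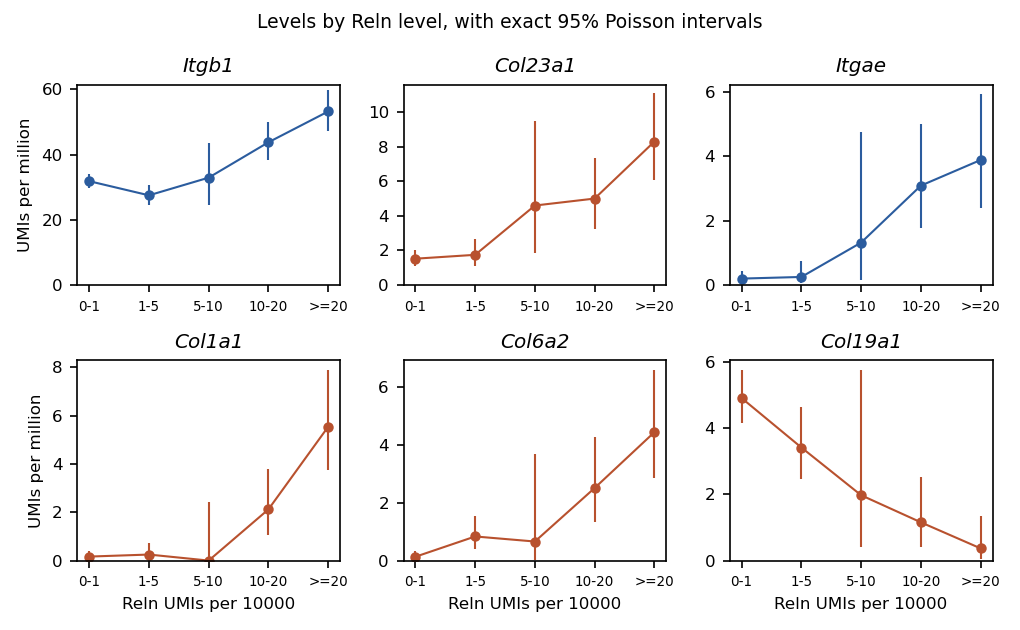
Levels in CPM of 6 genes are plotted against 5 bins of Reln UMIs per 10000, with exact 95% Poisson intervals and a vertical axis from 0 in each panel. Itgb1, Col23a1, Itgae, Col1a1 and Col6a2 are highest in the top bin, and Col19a1 is lowest there.

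In droplet data free RNA can give a barcode UMIs of genes it does not express, and no empty droplets were at hand to measure it. The 7 CR neuron markers stood in other neurons at 1.84 to 4.95% of their Reln-high level, with Reln, which defined the sets, at 3.90%. Col1a1 stood at 5.61%, Itgae at 6.63%, Col6a2 at 10.6% and Col23a1 at 24.7%. All 4 values lay above the range of the markers, Col1a1 and Itgae by little and Col23a1 by most. Col1a1 and Itgae had only 8 and 9 UMIs in other neurons. As fractions with counting intervals they stood at 0.056 (0.023 to 0.121) and 0.066 (0.028 to 0.139). These 2 were thus not separable from the markers. The part of free RNA in these levels was not tested.

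The 6 members with 1 UMI over all barcodes necessarily had it in 1 barcode, and none of the 39 members with at least 20 UMIs rested on a single one. Over all 3000 barcodes, the top barcode held 0.357 to 4.81% of the UMIs of the 15 members with at least 100 UMIs, with Col19a1 at the upper end. It held at most 13.0% among the 24 members with 20 to 99 UMIs. Haemoglobin genes, by contrast, had most of their UMIs in 1 barcode, for Hba-a1 6800 of 7798. That barcode was counted among other neurons, as was the one with 32 of the 36 UMIs of Olig1, a marker of oligodendrocyte precursors. The set of other neurons left out whole clusters only, so it can hold single barcodes of other cell types.

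Of the machinery around these genes, 58 genes were listed in 4 groups, and 35 had at least 100 UMIs. There were 5 higher in Reln-high barcodes (14.3%, beside 7.25% of all genes) and 3 lower (8.57%, beside 5.26% of all genes), with a median log2 ratio of 0.44 beside 0.12 for all genes. Of 9 counted genes for the making and cross-linking of collagen, 1 was higher and 1 lower. Serpinh1, the collagen chaperone HSP47, had 1015 UMIs in Reln-high barcodes (83.7 CPM) and 282 in other neurons (6.69 CPM), a log2 ratio of 3.65 (3.45 to 3.84). It differed more than any collagen with at least 100 UMIs. Loxl1, a lysyl oxidase that cross-links matrix, stood at 0.82 CPM against 2.42 CPM (−1.55, −2.66 to −0.61).

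Among 4 counted matrix glycoproteins, Vcan, the proteoglycan versican, was higher at 93.2 CPM against 45.0 CPM (log2 ratio 1.05, 0.94 to 1.16). Among 7 other matrix receptors, 2 were higher and none lower, counts to be read beside 7.25% and 5.26% of all genes as for each of these groups. Sdc1, syndecan 1, stood at 22.6 CPM against 10.1 CPM (1.17, 0.94 to 1.39), and Cd47, which associates with integrins, at 337 CPM against 166 CPM (1.02, 0.96 to 1.07). Vcan and Cd47 stood just under 2-fold when each barcode's own CPM was averaged (0.94 and 0.90).

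Among 15 counted genes of the integrin adhesion complex, Parva was higher and Ptk2b and Parvb were lower. Parva and Parvb encode the alpha and beta parvins, which link integrins to actin through Ilk. Parva stood at 7.84 CPM against 2.21 CPM (log2 ratio 1.83, 1.40 to 2.26), and Parvb at 0.82 CPM against 2.47 CPM (−1.58, −2.68 to −0.64). Ptk2b, a focal adhesion kinase, stood at 1.15 CPM against 3.63 CPM (−1.65, −2.56 to −0.86). The parvins thus differed in opposite directions, while Ilk itself stood at 67.3 CPM against 46.7 CPM (0.53, 0.41 to 0.65).

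**Figure D5:**
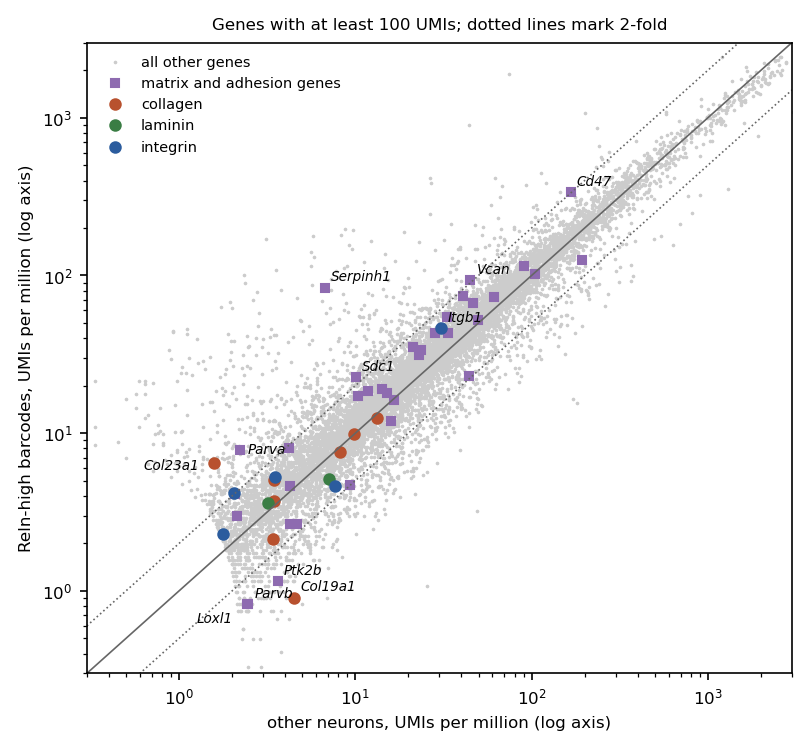
Levels in Reln-high barcodes are plotted against those in other neurons, both in CPM on log axes, for genes with at least 100 UMIs that had a UMI in both sets, without the most abundant genes, which lie past the axes. Points above the upper dotted line are at least 2-fold higher in Reln-high barcodes. Among collagens, laminins and integrins only Col23a1 and Itga3 reach it and only Col19a1 lies below the lower line, and Serpinh1 lies far above at 83.7 against 6.69.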

How the data were processed

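Ebf2-EGFP positive cortical cells were sorted by FACS and run on the 10x Genomics Chromium platform. The deposited values were raw UMI counts per gene and barcode, made by the authors with Cell Ranger 2.0.0 and mm10, per the submitters' processing notes, which also name Seurat 2.0. The annotation is not given in the sources used here. Clusters were rebuilt without the authors' cell annotation, and their names may differ from the study's for that reason.

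The members and gene lists were chosen with earlier results of these data known. The minimum was 1000 genes and the maximum 10% mitochondrial UMIs, and all 3000 barcodes passed. The 2.3% with the highest Scrublet scores were removed, since the automatic threshold called only 2 barcodes. Counts were clustered with scanpy 1.11.5 and scikit-learn 1.9.0 (2000 variable genes, 20 components, K-means with 8 clusters). A cluster name needed at least 3 markers with at least 10 UMIs and a 2-fold higher level. Where clusters shared a name, only the one with most of its markers kept it. The Snhg11-led cluster met the rule for upper-layer neurons with 3 of 6 markers (Cux1, Cux2 and Unc5d). It stayed unnamed because the upper-layer-like cluster had 5 of 6. UMIs were summed and scaled to 1000000 UMIs (CPM). Intervals were exact (Poisson, conditional binomial for ratios, Clopper-Pearson for shares; scipy 1.17.1). A UMI counts a transcript whatever its length. Genes named in full were those past 2-fold, the highest in each family and their partner chains. On simulated data of the Reln-high comparison over 27998 genes, all 200 changed genes were recovered and 95.5% of intervals held the true ratio. The simulated counts had counting error only, with no spread between cells, so this coverage was fixed in advance. The changed genes were well counted and changed by more than 2-fold. The check thus covers the arithmetic and not the calls on members with few UMIs. Contrasts of single clusters and the integrin sum without Itgb1 were chosen after their values were seen. Alternatives were other Reln limits, clusters in place of Reln, thinning, averaging of barcodes, other filters and other UMI minimums. Coordinates are from GENCODE M21 (GRCm38), in which all 82 members were found. RefSeq held a promoter for 58 of 81 symbols.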

Additional observations from a re-analysis of the deposited data

How the results depend on the processing

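With 1 library, all values compare sets of barcodes, and depth limits most members to under 100 UMIs. No paired analysis was possible because the cells of all samples share 1 matrix with no map to samples and no test was run.

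The count of members at least 2-fold higher was 1 as reported, 0 after thinning to 10000 UMIs, 0 without barcodes above 25000 UMIs, 2 with the mean of each barcode's own CPM (Itga3 was added) and 7 at a minimum of 20 UMIs. In the first 2 of these settings Col23a1 had 69 and 95 UMIs, under the minimum of 100, with log2 ratios of 1.82 and 2.20. The count of lower members was 1, 0 after thinning (Col19a1 had 99 UMIs, log2 ratio −2.63), 2 without barcodes above 25000 UMIs (Lamb1 was added) and 9 at 20 UMIs. The summed integrins had a log2 ratio of 0.67 without barcodes above 25000 UMIs and 0.48 to 0.67 over all settings. The summed collagens ran from 0.02 to 0.12 and the summed laminins from −0.27 to 0.14. The 7 members higher at 20 UMIs stayed at least 2-fold higher in all 11 settings, including those without barcodes above 25000 UMIs and without barcodes with RNA of both sexes. Of the 9 lower ones, 8 or 9 did. They were 8 with other neurons below 1 Reln UMI per 10000 (Col11a2 was lost), after thinning (Col15a1) and without barcodes with RNA of both sexes (Col5a1). Among 509 values of single genes under these settings, 490 moved within their counting interval and 19 beyond it. The cause of these shifts was not tested.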
